A study of Homo sapiens with 12 samples.

Results

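The 50 genes described here code for the proteins that mark replication origins, open DNA there and copy it at the fork. They were listed by name in 7 subgroups: 9 genes of origin recognition and licensing, 8 MCM genes, 7 genes of GINS and helicase activation, 10 of the polymerases and primase, 5 of the RFC clamp loader, 3 of RPA and 8 of other fork factors. All 50 were found among the 19775 genes of the table, each as the probe set with a single gene symbol that had the highest mean signal.

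RNA of 12 samples labelled PC3, a line grown from a human prostate cancer, was measured on Affymetrix 3-prime expression arrays, and by its title the study asked whether inhibition of Wee1 sensitises such cells to an Hsp90 inhibitor. The 4 groups of 3 samples were cells given both drugs, cells given Wee1 inhibitor II at 2.5 µM, cells given 17-AAG at 40 nM and control cells. Per the protocols all groups were the same line in the same serum-containing medium. The Wee1 inhibitor was added 24 h before 17-AAG, and RNA was taken 48 h after 17-AAG. The labels call the control samples untreated, while the treatment protocol gives controls the vehicle. Each group is a culture of a single cell line at a single dose and time, and nothing states that replicates were separate cultures, so the spread behind each p-value is that between these samples and may be technical in origin. Control replicate 2 was removed by the submitters, who call its signal weak, which leaves 11 arrays, with 3 for each drug group and 2 for control.

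Origins are licensed before S phase, when the origin recognition complex, CDC6 and CDT1 load the MCM helicase onto DNA. The kinase CDC7 with its partner DBF4, together with cyclin-dependent kinases, then lets CDC45 and GINS join MCM to form the active helicase, and primase, the polymerases, the clamp PCNA and its loader RFC follow at the fork. Transcription of many of these genes is driven by E2F factors at the start of S phase and is repressed in cells that leave the cycle. Wee1, a kinase, keeps CDK1 inactive by phosphorylation and also restrains origin firing in S phase, and Hsp90 is the chaperone that keeps many kinases folded.

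Several defining markers on the 11 arrays went against the cell line label. CTNNA1 and STAT3, which PC3 cells lack through deletion, had signals of 2560 to 5040 and 819 to 1300. HOXB13, a prostate transcription factor gene, reached at most 11.3, EPCAM at most 26.2 and CDH1 at most 13.2, and of 8 prostate and epithelial markers measured 2 were high, KRT18 at 453 to 650 and ESRP1 at 142 to 728. Among pigment cell genes, MLANA measured 2870 to 9920 and PMEL 3690 to 9200. Control replicate 2 had 1.57 for CTNNA1, 7.54 for STAT3, 2090 for HOXB13, 1100 for EPCAM, 2240 for KRT18, 2.67 for MLANA and 2.90 for PMEL. Its CDH1, at 5.55, was as low as on the 11 arrays, and its ESRP1, at 48.5, was lower. It correlated with the 11 others at 0.825 to 0.833 (Pearson's r over log2 signals), against 0.913 to 0.936 among the 11. The samples are therefore called by their drug labels only, and the results with that array included are given in the closing section.

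Nearly all of the 50 genes fell in cells given both drugs, and fewer fell with either drug alone, with smaller medians. With both drugs 48 of 50 were lower than in control and 0 higher in limma at an adjusted p under 0.05, where 11.3% of all genes were called lower and 16.7% higher. With Wee1 inhibitor II alone 33 were lower and 0 higher (10.3% and 14.5% of all genes), and with 17-AAG alone 22 were lower and 0 higher (6.8% and 9.93%). The median log2 fold change of the 50 genes was -1.37 with both drugs, -0.57 with Wee1 inhibitor II and -0.39 with 17-AAG, beside medians over all genes of 0.11, 0.12 and 0.01. A fall of at least 2-fold was measured for 38 members with both drugs, for 6 with Wee1 inhibitor II and for 3 with 17-AAG, and a fall of at least 4-fold for 9 with both drugs. Falls of these sizes were not counted over all genes, so these 4 counts have no background beside them.

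On the arrays themselves the groups stood apart for most members. In 42 of 50 genes, 84%, all 3 arrays with both drugs lay below the other 8 arrays, which held for 5.57% of all genes. In 36 of 50, 72%, both control arrays lay above the other 9, which held for 9.52% of all genes. The exceptions to the first count were ORC2, ORC3, ORC4, ORC5, ORC6, POLE3, RFC5 and RPA1, genes whose signals with both drugs overlapped with, or lay above, those of a single drug. By group means, 29 members ran in the order both drugs, Wee1 inhibitor II, 17-AAG and control from low to high, and 15 in the order both drugs, 17-AAG, Wee1 inhibitor II and control. The single drugs were the neighbours in that order that were least often separated, with 13 members called between them.

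**Figure D1:**
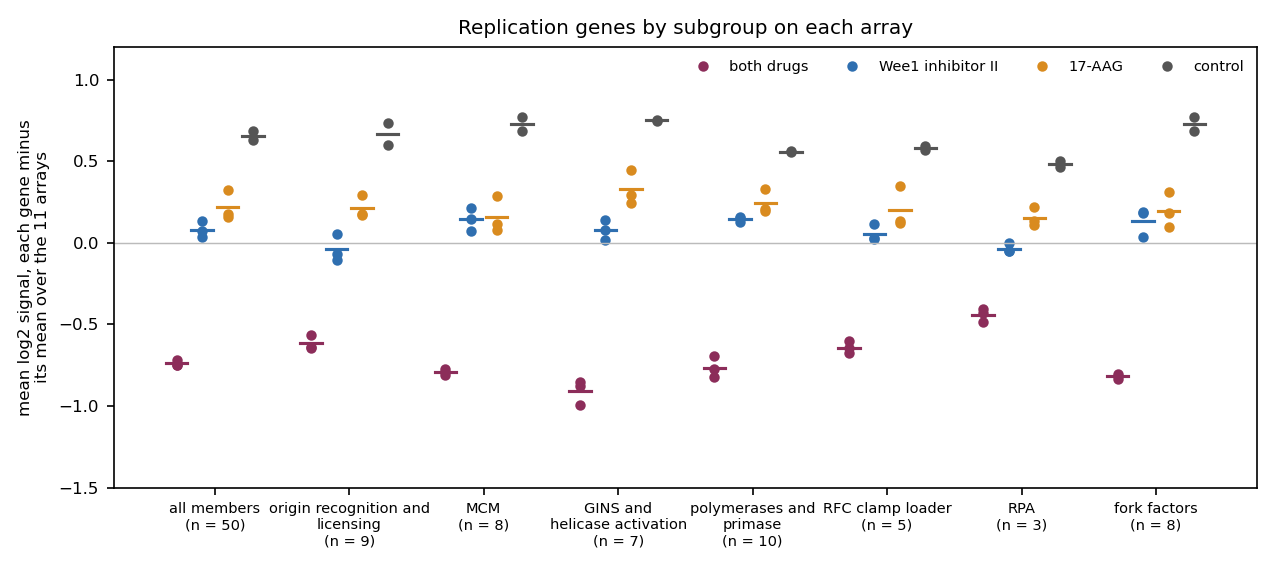
Mean log2 signal of the members of each subgroup on each array, after each gene's own mean over the 11 arrays was subtracted (y axis), for all 50 genes and the 7 subgroups (x axis, n is the number of genes). Points are arrays and bars are group means. Over all 50 genes the arrays with both drugs lay at -0.75 to -0.72, those with Wee1 inhibitor II at 0.04 to 0.13, those with 17-AAG at 0.16 to 0.33 and the control arrays at 0.63 and 0.68.

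Most members were also lower with both drugs than with either drug alone. With both drugs 42 members were lower and 0 higher than with 17-AAG alone (8.43% and 10.9% of all genes), with a median of -0.92 beside 0.10 over all genes. With both drugs 40 were lower and 0 higher than with Wee1 inhibitor II alone (6.84% and 7.27%), with a median of -0.82 beside 0.00. At an unadjusted p under 0.05 no member was higher with both drugs than with 17-AAG, and ORC5 was the 1 member higher than with Wee1 inhibitor II. Wee1 inhibitor II differed less from 17-AAG: 12 members were lower and 1, POLD3, higher (8.52% and 10.2% of all genes), and the median was -0.17 beside 0.11.

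These comparisons share arrays, the control ones among them, so their counts are not independent of each other. Of the 50 genes, 21 were called lower in all 3 drug groups against control, 12 with both drugs and with Wee1 inhibitor II, 1 with both drugs and with 17-AAG (POLD3), and 14 with both drugs alone of the 3. ORC3 and POLD2 were not called with both drugs. The same patterns were not counted over all genes, so how far they are particular to the members is not shown.

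The counts for the single drugs depended on few arrays. Without control replicate 1 the Wee1 inhibitor II count was 20. For 17-AAG it was 7 without control replicate 1, 8 without control replicate 3, 11 without 17-AAG replicate 1 and 12 without 17-AAG replicate 3. In limma fits of only the arrays compared, 19 members were called lower with Wee1 inhibitor II and 0 with 17-AAG, where 27 were lower at an unadjusted p under 0.05 and 0 of all genes were called. Against control, the calls that most settings ended were those of ORC1 with Wee1 inhibitor II (lost in 16 fits, counting 11 alternatives and 11 left-out arrays) and of RFC3, RFC4 and ORC6 with 17-AAG (lost in 17, 15 and 14). For Wee1 inhibitor II against 17-AAG they were those of RPA3, POLD3, GINS4 and POLE2 (lost in 16, 15, 14 and 12). The count for both drugs against control stayed between 46 and 48 with any of the 11 arrays left out. With the probe sets of a gene averaged, 42 members were called lower with both drugs, 26 with Wee1 inhibitor II and 15 with 17-AAG against control.

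Other measures moved with the same groups. The proliferation markers MKI67, TOP2A, CCNB1 and CDK1, 4 of 4 measured, summed to 2837 to 3234 on the arrays with both drugs, 9787 to 10390 with Wee1 inhibitor II, 8752 to 9359 with 17-AAG and 9139 to 10610 in control. All 4 fell with both drugs, MKI67 by 3.27 and CDK1 by 1.95 on the log2 scale, while with Wee1 inhibitor II none was called lower and TOP2A was higher by 0.37 (adjusted p = 0.0162). With 17-AAG CCNB1 was called lower (-0.49 on the log2 scale, adjusted p = 0.00598), and MKI67, TOP2A and CDK1 were not called. In bulk RNA, fewer cells that are cycling and less RNA of these genes per cell cannot be told apart. Prostate and epithelial markers (8 of 9 measured) summed to 1357 to 1452 with both drugs, 761.1 to 902.5 with Wee1 inhibitor II, 897.8 to 954.9 with 17-AAG and 871.2 to 912.8 in control. Most of that signal was KRT18 and ESRP1, with geometric means of 580 and 666.4 with both drugs and 463.4 and 288.1 in control. EPCAM, CDH1 and GRHL2, all dim, had lower means with both drugs than in control. Pigment cell genes (6 of 7 measured) summed to 46540 to 48140 with both drugs, 25710 to 28260 with Wee1 inhibitor II, 39320 to 44640 with 17-AAG and 31680 to 33240 in control. With Wee1 inhibitor II, MLANA, PMEL and MITF were called lower than in control. TYR was called higher, by 0.79 on the log2 scale, and TYRP1 and SOX10 were not called. Of the fibroblast markers (4 of 4 measured, sums of 754.5 to 822.1, 407.4 to 454.9, 1769 to 1892 and 1074 to 1205 in the same order of groups) most of the signal was LUM, and the blood markers (3 of 4 measured) reached at most 38.51 on any array. The gap between the 3-prime and 5-prime probe sets of ACTB, a sign of RNA quality, was 0.96 ± 0.05 with both drugs, 0.68 ± 0.09 with Wee1 inhibitor II, 0.96 ± 0.08 with 17-AAG (SD of log2 values, n = 3 each) and 0.69 ± 0.03 in control (n = 2). That of GAPDH averaged -0.01, -0.05, -0.04 and -0.06 in the same order. The part of these measures in the results was not tested.

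For 17-AAG a further check touched the label. Hsp90 inhibitors are known to induce heat shock genes, yet of 9 such genes measured 4 were lower and 0 higher with 17-AAG than in control, among them DNAJB1 at -1.22 ± 0.09 and DNAJA1 at -1.12 ± 0.13 (log2, SE; adjusted p = 0.000375 and 0.00144). DNAJB1 had geometric means of 889 with both drugs, 724.7 with Wee1 inhibitor II, 510 with 17-AAG and 1192 in control. Those of DNAJA1 were 3559, 3126, 1940 and 4222 in that order. The other 2 of the 4, HSPH1 and HSPE1, also had lower means in every drug group than in control. An exchange of labels between 17-AAG and control samples was not tested, and every comparison with either group, the order of the groups and the interaction included, rests on these labels.

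**Figure D2:**
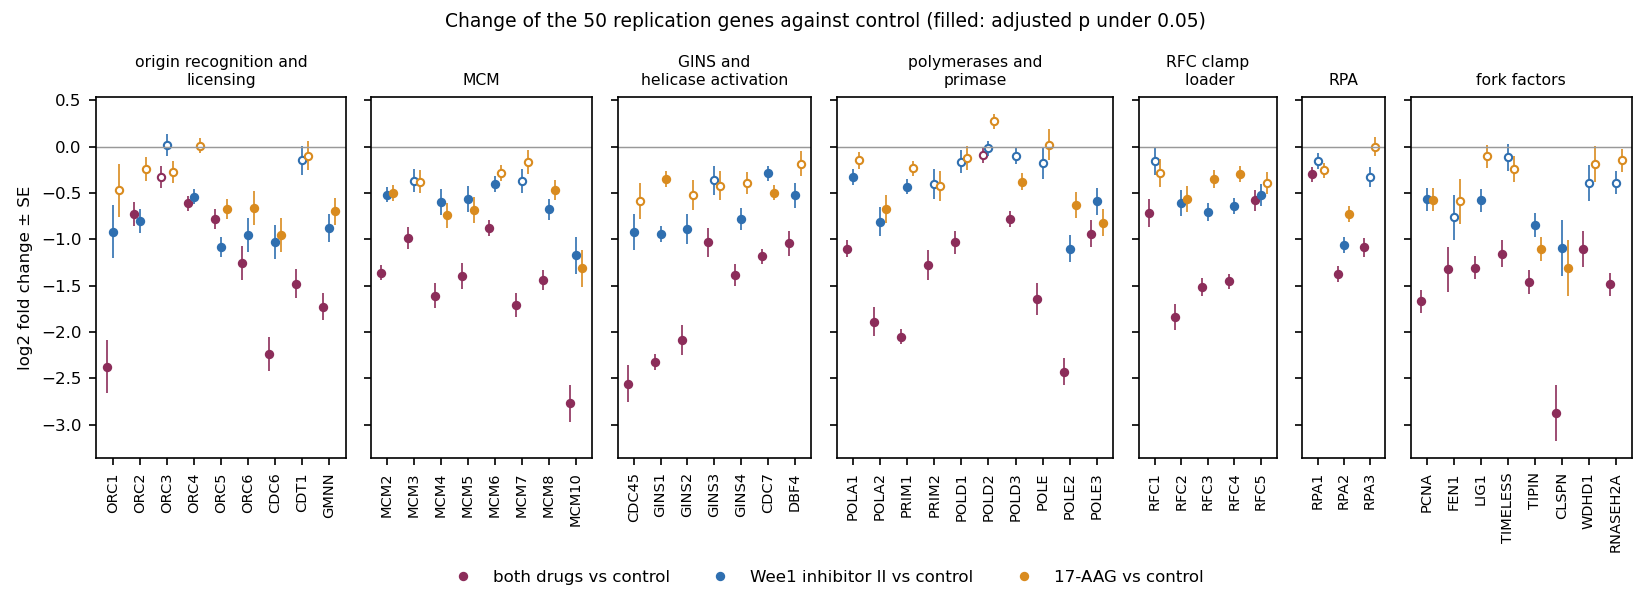
Log2 fold change against control with its standard error (y axis) for each of the 50 genes (x axis) by subgroup, with both drugs, Wee1 inhibitor II and 17-AAG. Filled points passed an adjusted p under 0.05. The values with both drugs run from -2.87 for CLSPN, which was dim with both drugs, to -0.10 for POLD2, and those of all 8 MCM genes lie below those of either drug alone.

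Promoters are shown for 6 members that fell together with both drugs: 3 MCM genes, which carried E2F-like letters most often, and 3 members of other subgroups with a large interaction, 1 of them without a match, chosen after their values were seen. The windows run from 250 bases before to 50 after the start of transcription, in the gene's direction, from RefSeq on build GRCh38.p14. Capitals mark E2F-like matches, that is TTTCCCGC, TTTGGCGC, TTTCGCGC or TTTGCCGC on either strand, which can overlap each other.
MCM2 (chr3:127598161-127598460, plus strand): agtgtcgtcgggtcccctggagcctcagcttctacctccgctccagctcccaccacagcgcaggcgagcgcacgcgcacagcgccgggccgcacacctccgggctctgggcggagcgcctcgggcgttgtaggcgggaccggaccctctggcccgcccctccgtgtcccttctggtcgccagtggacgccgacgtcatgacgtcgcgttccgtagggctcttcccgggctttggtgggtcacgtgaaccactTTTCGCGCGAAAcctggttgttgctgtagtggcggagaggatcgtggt
MCM6 (chr2:135876394-135876693, minus strand): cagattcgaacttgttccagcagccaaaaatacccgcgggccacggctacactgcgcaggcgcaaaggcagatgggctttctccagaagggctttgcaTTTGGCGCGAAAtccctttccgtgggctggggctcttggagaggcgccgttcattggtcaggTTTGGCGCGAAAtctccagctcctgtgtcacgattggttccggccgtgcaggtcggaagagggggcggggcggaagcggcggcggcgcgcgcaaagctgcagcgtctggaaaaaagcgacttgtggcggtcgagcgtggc
MCM7 (chr7:100101348-100101647, minus strand): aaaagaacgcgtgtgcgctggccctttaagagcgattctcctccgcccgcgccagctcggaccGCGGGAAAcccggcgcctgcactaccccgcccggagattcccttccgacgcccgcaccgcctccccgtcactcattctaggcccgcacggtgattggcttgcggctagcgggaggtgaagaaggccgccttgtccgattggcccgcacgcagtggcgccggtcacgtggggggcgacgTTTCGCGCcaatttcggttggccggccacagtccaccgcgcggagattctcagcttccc
CDT1 (chr16:88803539-88803838, plus strand): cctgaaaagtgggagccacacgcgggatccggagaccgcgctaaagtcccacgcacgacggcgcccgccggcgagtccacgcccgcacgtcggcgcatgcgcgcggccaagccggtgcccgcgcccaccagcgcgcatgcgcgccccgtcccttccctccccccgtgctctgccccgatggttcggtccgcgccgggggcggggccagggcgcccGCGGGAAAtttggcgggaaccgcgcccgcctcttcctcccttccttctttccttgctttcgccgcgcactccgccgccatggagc
POLE (chr12:132687293-132687592, minus strand): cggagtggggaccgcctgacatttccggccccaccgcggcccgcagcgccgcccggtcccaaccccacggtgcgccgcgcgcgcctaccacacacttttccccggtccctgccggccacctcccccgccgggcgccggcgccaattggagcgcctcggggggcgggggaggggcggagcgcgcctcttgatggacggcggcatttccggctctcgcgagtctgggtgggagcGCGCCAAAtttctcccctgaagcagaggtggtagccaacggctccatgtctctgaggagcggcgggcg
PRIM1 (chr12:56752274-56752573, minus strand): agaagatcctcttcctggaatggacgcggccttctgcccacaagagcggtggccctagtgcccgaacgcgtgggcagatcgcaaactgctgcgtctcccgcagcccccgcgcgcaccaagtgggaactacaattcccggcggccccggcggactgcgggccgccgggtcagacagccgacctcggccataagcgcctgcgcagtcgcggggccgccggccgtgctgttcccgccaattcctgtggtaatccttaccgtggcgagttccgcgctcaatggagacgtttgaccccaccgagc

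The MCM2 window holds 2 matches on opposite strands that overlap just after the start site, MCM6 holds 4 in 2 such overlapping pairs, MCM7 holds 2, CDT1 and POLE hold 1 each and PRIM1 none. Of the 44 members with a promoter in the table, 19 held an E2F-like match, 43.2%, beside 3.33% of 27305 promoters in all, 4.36% of 15384 promoters of genes tested and 5.98% of 6992 promoters of genes with a mean signal of at least 100. By subgroup it was 5 of 6 MCM promoters, 3 of 6 of GINS and helicase activation, 4 of 9 of polymerases and primase, 3 of 8 of fork factors, 3 of 9 of origin recognition and licensing, 1 of 5 of RFC and 0 of 1 of RPA. A CCAAT box (CCAAT on either strand) stood in 25 of 44, 56.8%. It stood in 35.7% of all promoters, 36.1% of those of genes tested and 38.3% of those of genes with a mean signal of at least 100. A CHR-like match (TTTGAA or TTCGAA on either strand) stood in 2 of 44, 4.55%, beside 16.6%, 13.3% and 11.6% of the same promoters. The promoters of GINS4, MCM4, MCM5, POLD3, RPA2 and RPA3 were not in the table. The 19 members with an E2F-like match had a median log2 fold change of -1.52 with both drugs against control and the 25 without one -1.19, a description with no test. With Wee1 inhibitor II the medians were -0.57 and -0.54, and with 17-AAG -0.38 and -0.39.

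Of the 9 genes of origin recognition and licensing, 8 were lower with both drugs, 7 with Wee1 inhibitor II and 4 with 17-AAG than in control, and the median log2 fold changes were -1.26, -0.88 and -0.47. CDC6, the ATPase that joins ORC to load MCM, had signals of 149, 127 and 122 with both drugs, 324, 339 and 262 with Wee1 inhibitor II, 309, 395 and 273 with 17-AAG and 585 and 666 in control. Signals are listed by replicate, 1 to 3 for the drug groups and 1 and 3 for control. Each drug group lay below control without overlap, and both drugs together lay below either alone. The log2 fold change was -2.24 ± 0.18 with both drugs (SE; adjusted p = 8.58e-05), -1.03 ± 0.18 with Wee1 inhibitor II (adjusted p = 0.0048) and -0.96 ± 0.18 with 17-AAG (adjusted p = 0.0102). Errors of log2 fold changes are standard errors of the limma fit on 11 arrays throughout, and adjusted p-values are its Benjamini-Hochberg values over all 19775 genes. GMNN codes for geminin, which binds and blocks CDT1. Its signals were 655, 673 and 738 with both drugs, 1151, 1308 and 1252 with Wee1 inhibitor II, 1271, 1721 and 1256 with 17-AAG and 2314 and 2232 in control, and it fell by 3.31-fold with both drugs (adjusted p = 9.72e-05), 1.84-fold with Wee1 inhibitor II (adjusted p = 0.00335) and 1.62-fold with 17-AAG (adjusted p = 0.0145). The single drugs overlapped with each other and lay between both drugs and control.

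CDT1 is the other loader of MCM and the target of geminin. It had signals of 166, 166 and 212 with both drugs, 429, 477 and 456 with Wee1 inhibitor II, 489, 399.8 and 529 with 17-AAG and 534 and 473 in control. Only the arrays with both drugs were low, and the single drugs overlapped with control. CDT1 was 2.79-fold lower with both drugs (adjusted p = 0.000273), and its log2 fold changes with Wee1 inhibitor II and with 17-AAG were -0.15 ± 0.16 (adjusted p = 0.58) and -0.10 ± 0.16 (adjusted p = 0.757).

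The 6 ORC subunits were called in different sets of comparisons. ORC1, the subunit whose level is known to follow the cell cycle, fell by 5.19-fold with both drugs (adjusted p = 0.000519), although its control arrays were far apart at 292 and 161. ORC5 had signals of 588, 546 and 542 with both drugs, 449, 450.0 and 459 with Wee1 inhibitor II, 618, 568 and 625 with 17-AAG and 860.3 and 1076 in control. Wee1 inhibitor II alone gave the lowest values, both drugs overlapped with 17-AAG, and control lay highest. Against control ORC5 fell by 0.79 ± 0.11 on the log2 scale with both drugs (adjusted p = 0.001), by 1.09 ± 0.11 with Wee1 inhibitor II (adjusted p = 0.000332) and by 0.67 ± 0.11 with 17-AAG (adjusted p = 0.00506). ORC2 and ORC4 were lower with both drugs, by 1.65-fold and 1.53-fold, and with Wee1 inhibitor II, by 1.75-fold and 1.45-fold, and had log2 fold changes of -0.24 ± 0.13 and 0.01 ± 0.08 with 17-AAG that were not called. Between both drugs and Wee1 inhibitor II their differences were 0.08 ± 0.12 and -0.07 ± 0.07, neither called. ORC6 fell in all 3 drug groups, by 2.40-fold, 1.94-fold and 1.59-fold, the last a call lost in 14 fits. ORC3, named here because it was not called, had signals of 308, 249.6 and 256 with both drugs, 335, 341 and 352 with Wee1 inhibitor II, 268, 294 and 278 with 17-AAG and 368 and 313 in control. Both drugs overlapped with 17-AAG and Wee1 inhibitor II with control, and with both drugs its log2 fold change was -0.33 ± 0.12 (adjusted p = 0.0727).

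All 8 MCM genes were lower with both drugs than in control and than with either drug alone. With Wee1 inhibitor II 6 were lower than in control and with 17-AAG 5, and the medians were -1.42, -0.54 and -0.49. MCM2, a subunit of the helicase ring whose promoter is shown above, had signals of 538, 552 and 527 with both drugs, 995, 941 and 968 with Wee1 inhibitor II, 961, 1056 and 926 with 17-AAG and 1379 and 1394 in control. The arrays formed 3 levels with little spread, since the single drugs overlapped. MCM2 fell by 2.57-fold with both drugs (adjusted p = 2.4e-05), 1.43-fold with Wee1 inhibitor II (adjusted p = 0.00264) and 1.42-fold with 17-AAG (adjusted p = 0.00554). MCM7, another ring subunit, had signals of 367, 437 and 316 with both drugs, 874, 952 and 976 with Wee1 inhibitor II, 1076, 1079.8 and 1067 with 17-AAG and 1211 and 1206 in control. The arrays with both drugs stood far below all others, 3.27-fold below control (adjusted p = 6.35e-05), while the log2 fold changes with Wee1 inhibitor II and with 17-AAG, -0.37 ± 0.13 and -0.17 ± 0.13, were not called. MCM10 is not part of the ring and is needed to start the assembled helicase. It had signals of 77.2, 89.7 and 87.5 with both drugs, 266, 289.7 and 217 with Wee1 inhibitor II, 191, 297 and 219.9 with 17-AAG and 623 and 533 in control. The single drugs overlapped with each other, well below control and well above both drugs. MCM10 was 6.81-fold lower with both drugs (adjusted p = 5.44e-05), 2.25-fold with Wee1 inhibitor II (adjusted p = 0.00395) and 2.48-fold with 17-AAG (adjusted p = 0.00438). The other ring genes MCM3, MCM4, MCM5 and MCM6 fell by 1.98-fold, 3.05-fold, 2.64-fold and 1.84-fold with both drugs, and MCM8, a helicase known from DNA repair, by 2.71-fold.

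The partners that turn MCM into a moving helicase fell with it. All 7 genes of GINS and helicase activation were lower with both drugs than in control, 6 were lower with Wee1 inhibitor II and 2 with 17-AAG, and the medians were -1.39, -0.78 and -0.42. GINS1, a subunit of the GINS complex, had signals of 166, 165 and 167 with both drugs, 435, 456 and 408 with Wee1 inhibitor II, 649, 699.8 and 609.7 with 17-AAG and 834 and 829.7 in control. The 4 groups did not overlap, and the spread within each was small. It fell by 5.01-fold with both drugs (adjusted p = 5.73e-06), 1.92-fold with Wee1 inhibitor II (adjusted p = 0.000243) and 1.28-fold with 17-AAG (adjusted p = 0.0278). CDC45, the third component beside MCM and GINS, had signals of 141, 116 and 98.4 with both drugs, 419, 352 and 327 with Wee1 inhibitor II, 431, 541 and 411 with 17-AAG and 624 and 759 in control. Both drugs together gave the lowest values, control the highest, and the single drugs overlapped. CDC45 fell by 5.88-fold with both drugs (adjusted p = 6.45e-05) and 1.89-fold with Wee1 inhibitor II (adjusted p = 0.0102), and its log2 fold change with 17-AAG was -0.59 ± 0.20 (adjusted p = 0.0806). CDC7, the kinase that phosphorylates MCM, had signals of 242, 234 and 228 with both drugs, 429, 419 and 463 with Wee1 inhibitor II, 372, 390.2 and 372 with 17-AAG and 544 and 524 in control. Here 17-AAG lay below Wee1 inhibitor II, the reverse of GINS1, though the difference was not called for CDC7 (0.21 ± 0.07, adjusted p = 0.0816). The log2 fold changes of CDC7 were -1.19 ± 0.08 with both drugs (adjusted p = 3.39e-05), -0.29 ± 0.08 with Wee1 inhibitor II (adjusted p = 0.0297) and -0.50 ± 0.08 with 17-AAG (adjusted p = 0.00488). DBF4, its activating partner, fell by 2.06-fold with both drugs and 1.44-fold with Wee1 inhibitor II. GINS2, GINS3 and GINS4 fell by 4.25-fold, 2.04-fold and 2.62-fold with both drugs.

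Among the 10 genes of the polymerases and primase, 9 were lower with both drugs, 5 with Wee1 inhibitor II and 4 with 17-AAG, with medians of -1.19, -0.36 and -0.31. PRIM1, the catalytic subunit of primase, had signals of 207, 218 and 208 with both drugs, 614, 661 and 668 with Wee1 inhibitor II, 767, 736 and 726 with 17-AAG and 906 and 842 in control. The arrays with both drugs were far below all others, which lay close together with Wee1 inhibitor II below 17-AAG and 17-AAG below control. PRIM1 fell by 4.14-fold with both drugs (adjusted p = 6.77e-06) and 1.35-fold with Wee1 inhibitor II (adjusted p = 0.00554), and its log2 fold change with 17-AAG was -0.23 ± 0.08 (adjusted p = 0.0888). PRIM2, the large subunit, fell by 2.43-fold with both drugs, and its single-drug values of -0.40 ± 0.16 and -0.43 ± 0.16 were not called. POLA1, the catalytic subunit of polymerase alpha, had signals of 143, 138 and 134 with both drugs, 243, 228 and 239 with Wee1 inhibitor II, 279, 265 and 257 with 17-AAG and 278 and 315 in control. The fall was mainly with both drugs, 2.14-fold (adjusted p = 7.35e-05), beside 1.25-fold with Wee1 inhibitor II (adjusted p = 0.0273), and 17-AAG overlapped with control. POLA2, its regulatory subunit, fell in all 3 drug groups, by 3.70-fold, 1.75-fold and 1.59-fold.

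Subunits of the replicative polymerases were also called in different comparisons. POLE, the catalytic subunit of the leading strand polymerase epsilon, had signals of 44.0, 64.6 and 46.3 with both drugs, 142, 143 and 137 with Wee1 inhibitor II, 173, 143 and 170.0 with 17-AAG and 150.2 and 168 in control. POLE was called lower only with both drugs together, by 3.13-fold (adjusted p = 0.000248). Every array with Wee1 inhibitor II lay below both control arrays, but the log2 fold change of -0.18 ± 0.17 was not called. With 17-AAG it was 0.02 ± 0.17, also not called. POLE2, the second subunit of that enzyme, had signals of 87.4, 111 and 96.4 with both drugs, 240.1, 259 and 237 with Wee1 inhibitor II, 322, 399 and 305 with 17-AAG and 502 and 550.0 in control. Its 4 groups did not overlap. The fall was 5.37-fold with both drugs (adjusted p = 2.4e-05), 2.15-fold with Wee1 inhibitor II (adjusted p = 0.00116) and 1.55-fold with 17-AAG (adjusted p = 0.0209). POLE3, a small histone-fold subunit, fell by 1.92-fold, 1.51-fold and 1.76-fold, and its difference between both drugs and 17-AAG was not called (-0.12 ± 0.13, adjusted p = 0.611). POLD1, the catalytic subunit of the lagging strand polymerase delta, had signals of 111, 100.4 and 126 with both drugs, 230.3, 184 and 204 with Wee1 inhibitor II, 208, 219 and 205 with 17-AAG and 226 and 233 in control. As with POLE, only both drugs together gave values called lower, 2.05-fold below control (adjusted p = 0.000531), and the single drugs at -0.16 ± 0.13 and -0.12 ± 0.13 were not called. POLD2, an accessory subunit of the same enzyme, had signals of 413, 419 and 399 with both drugs, 424, 432 and 444 with Wee1 inhibitor II, 512, 569.9 and 507 with 17-AAG and 442 and 434 in control. With both drugs its difference from control was not called (-0.10 ± 0.08, adjusted p = 0.467), and 17-AAG lay above all other groups (0.27 ± 0.08 against control, adjusted p = 0.055), which was not called. POLD3, a further accessory subunit, had signals of 201, 218 and 189 with both drugs, 335, 313 and 325 with Wee1 inhibitor II, 259, 278 and 266 with 17-AAG and 336 and 359.5 in control. It was the only member called higher with Wee1 inhibitor II than with 17-AAG (0.28 ± 0.08, adjusted p = 0.045), a call that 15 alternatives and left-out arrays ended, and it fell with both drugs by 1.72-fold (adjusted p = 0.00039).

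All 5 genes of the RFC complex, which opens PCNA and closes it around DNA, were lower with both drugs, 4 with Wee1 inhibitor II and 3 with 17-AAG, with medians of -1.46, -0.61 and -0.35. RFC4 had signals of 1045, 1145 and 1116 with both drugs, 1900.5, 1920.1 and 1997 with Wee1 inhibitor II, 2383, 2630.4 and 2369 with 17-AAG and 2974 and 3066 in control. The 4 groups did not overlap. It fell by 2.74-fold with both drugs (adjusted p = 2.09e-05), 1.56-fold with Wee1 inhibitor II (adjusted p = 0.00114) and 1.23-fold with 17-AAG (adjusted p = 0.0463). RFC3 had signals of 549, 514 and 590.0 with both drugs, 956, 977 and 975 with Wee1 inhibitor II, 1140.5, 1289 and 1278 with 17-AAG and 1661 and 1495 in control. The order of the groups was that of RFC4, and the falls were 2.86-fold, 1.63-fold and 1.28-fold (adjusted p = 2.95e-05, 0.00146 and 0.0422). RFC2 fell by 3.58-fold with both drugs. RFC1, the large subunit, fell by 1.65-fold with both drugs and was not called with either alone (-0.16 ± 0.15 and -0.28 ± 0.15). RFC5 fell by 0.58 ± 0.12 on the log2 scale with both drugs for the brightest probe set, kept here, and its other 2 probe sets with a mean signal of at least 100 gave -1.67 and -1.56.

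RPA coats the single strands that unwinding leaves. Its 3 subunits were all lower with both drugs, and 1, RPA2, was lower with each single drug. RPA2 had signals of 395, 408 and 384 with both drugs, 453, 512 and 509.6 with Wee1 inhibitor II, 621, 626 and 615 with 17-AAG and 1058 and 994 in control. The 4 groups did not overlap. It fell by 2.59-fold with both drugs (adjusted p = 2.47e-05), 2.09-fold with Wee1 inhibitor II (adjusted p = 0.000135) and 1.65-fold with 17-AAG (adjusted p = 0.00154). RPA3, the smallest subunit, had signals of 990.2, 839.7 and 979 with both drugs, 1646, 1590.5 and 1509 with Wee1 inhibitor II, 1993, 2118 and 1851 with 17-AAG and 1939 and 2033 in control. With 17-AAG it lay at the control level (-0.0007 ± 0.10, adjusted p = 0.998), and with both drugs it fell by 2.13-fold (adjusted p = 0.000173). RPA1, the largest subunit, had the smallest fall called with both drugs, 1.23-fold (adjusted p = 0.0277), a call lost in 9 of these fits, and its differences from 17-AAG (-0.04 ± 0.07) and Wee1 inhibitor II (-0.14 ± 0.07) were not called.

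The 8 other fork factors were all lower with both drugs, 4 with Wee1 inhibitor II and 3 with 17-AAG, with medians of -1.39, -0.57 and -0.41. PCNA, the clamp that holds polymerases on DNA, had signals of 1138, 1112 and 1066 with both drugs, 2260.5, 2501 and 2339 with Wee1 inhibitor II, 2253, 2750.5 and 2099.7 with 17-AAG and 3693 and 3328 in control. Both drugs gave the lowest and control the highest values, and the single drugs overlapped. PCNA fell by 3.17-fold with both drugs (adjusted p = 5.83e-05), 1.48-fold with Wee1 inhibitor II (adjusted p = 0.0115) and 1.49-fold with 17-AAG (adjusted p = 0.0162). RNASEH2A, the catalytic subunit of RNase H2, which cleaves RNA paired with DNA, had signals of 519.9, 492 and 619 with both drugs, 1166, 1183 and 1126 with Wee1 inhibitor II, 1512, 1233 and 1374 with 17-AAG and 1460.5 and 1574 in control. Wee1 inhibitor II lay below control, 17-AAG overlapped with it, and both drugs were far lower, by 2.80-fold (adjusted p = 9.52e-05), while neither single drug was called (-0.39 ± 0.13 and -0.15 ± 0.13). LIG1, the ligase that seals Okazaki fragments, had signals of 112, 95.4 and 85.8 with both drugs, 153, 173 and 157 with Wee1 inhibitor II, 236, 227 and 209 with 17-AAG and 242 and 239 in control. It fell by 2.47-fold with both drugs (adjusted p = 0.000168) and 1.49-fold with Wee1 inhibitor II (adjusted p = 0.0108), with 17-AAG just below control (-0.10 ± 0.12, not called). FEN1, which trims the flaps before sealing, fell by 2.50-fold with both drugs (adjusted p = 0.00424), and its arrays were the most scattered of this subgroup apart from those of CLSPN.

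TIMELESS and TIPIN form a complex that steadies the fork. TIMELESS had signals of 167, 227 and 173 with both drugs, 388, 367 and 396 with Wee1 inhibitor II, 388, 339.5 and 330.2 with 17-AAG and 411 and 421 in control. Its arrays with both drugs lay far below all others, 2.23-fold below control (adjusted p = 0.000577), and the single drugs gave -0.12 ± 0.14 and -0.24 ± 0.14, not called. TIPIN had signals of 350.7, 379 and 359 with both drugs, 550.2, 624 and 499 with Wee1 inhibitor II, 446, 534 and 421 with 17-AAG and 989.6 and 1005 in control. Here 17-AAG and Wee1 inhibitor II each lay far below control, and the falls were 2.75-fold, 1.80-fold and 2.15-fold (adjusted p = 0.00012, 0.00229 and 0.0016). CLSPN, which codes for claspin, the link from stalled forks to the checkpoint kinase CHK1, had signals of 17.5, 11.5 and 13.7 with both drugs, 54.2, 55.3 and 37.5 with Wee1 inhibitor II, 37.7, 58.2 and 32.7 with 17-AAG and 121 and 87.8 in control. With both drugs these lay below the median of all probe sets of an array, which was 17.7 to 23.1, so the size of the fall is uncertain. As measured it was 7.32-fold with both drugs, 2.13-fold with Wee1 inhibitor II and 2.48-fold with 17-AAG (adjusted p = 0.000272, 0.0321 and 0.022). WDHD1, which ties the helicase to polymerase alpha, fell by 2.15-fold with both drugs and was not called with either alone.

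**Figure D3:**
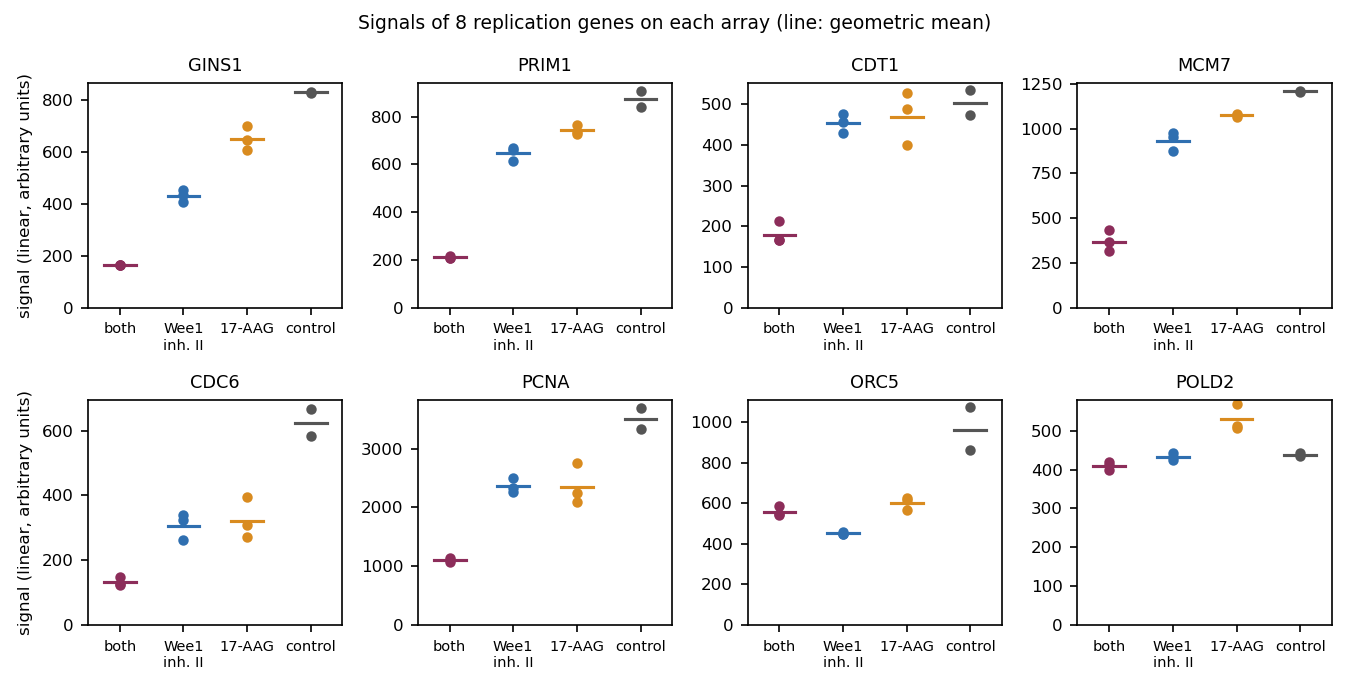
Signals on each array (points, linear scale, arbitrary units, y axis from 0) and the geometric mean (bar) of 8 members in the 4 groups (x axis). GINS1, PRIM1, CDT1, MCM7, CDC6 and PCNA were lowest on all 3 arrays with both drugs, ORC5 was lowest with Wee1 inhibitor II, and POLD2 had its highest signals with 17-AAG.

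Whether both drugs together differed from the sum of their single effects was tested as the interaction, the change by Wee1 inhibitor II in the presence of 17-AAG minus its change without, on the log2 scale. At an adjusted p under 0.05 the interaction was called below 0 for 14 members and above 0 for 1 (6.97% and 4.82% of all genes), and the median over the 50 was -0.35 beside -0.03 over all genes. By value alone 41 of 50 lay below the sum, the measured median being -1.37 and that of the sum -0.98. The share of all genes below the sum was not counted, and their median of -0.03 was also below 0. POLE had the lowest interaction, -1.49 ± 0.23 (adjusted p = 0.00607): both drugs gave -1.64, and the single effects summed to -0.16. PRIM1 followed at -1.38 ± 0.11 (adjusted p = 0.00063), CDT1 at -1.23 ± 0.21 (adjusted p = 0.00897) and MCM7 at -1.17 ± 0.17 (adjusted p = 0.00551). These 4 serve leading strand copying, primer synthesis, licensing and unwinding. CDC45 and GINS1 had interactions of -1.05 ± 0.26 (adjusted p = 0.0383) and -1.03 ± 0.12 (adjusted p = 0.00199). The other 8 below 0 were RNASEH2A, TIMELESS, RPA3, POLD1, POLA1, LIG1, RFC4 and CDC7, from -0.95 ± 0.17 (adjusted p = 0.0105) to -0.40 ± 0.11 (adjusted p = 0.0474).

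Of the 9 members above the sum ORC5 was the 1 called, at 0.98 ± 0.15 (adjusted p = 0.00545). Each drug alone lowered it, and both drugs together did so by less than the sum of -1.76. Large falls with both drugs did not always come with an interaction: MCM10 and CDC6 had interactions of -0.28 ± 0.27 and -0.25 ± 0.25, neither called. CLSPN was too dim with both drugs for its interaction to be read. The number called below 0 was 6 without control replicate 1, 8 without control replicate 3, 9 without 17-AAG replicate 1, 2 or 3, 9 without Wee1 inhibitor II replicate 3, 9 without both drugs replicate 3 and 10 without any of the others, and the number called above 0 was 2 without 17-AAG replicate 2. CDC45, TIMELESS, LIG1 and CDC7 each missed the threshold in 15 or 16 of the fits and POLD1 in 11, counting 10 alternatives and 11 left-out arrays.

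**Figure D4:**
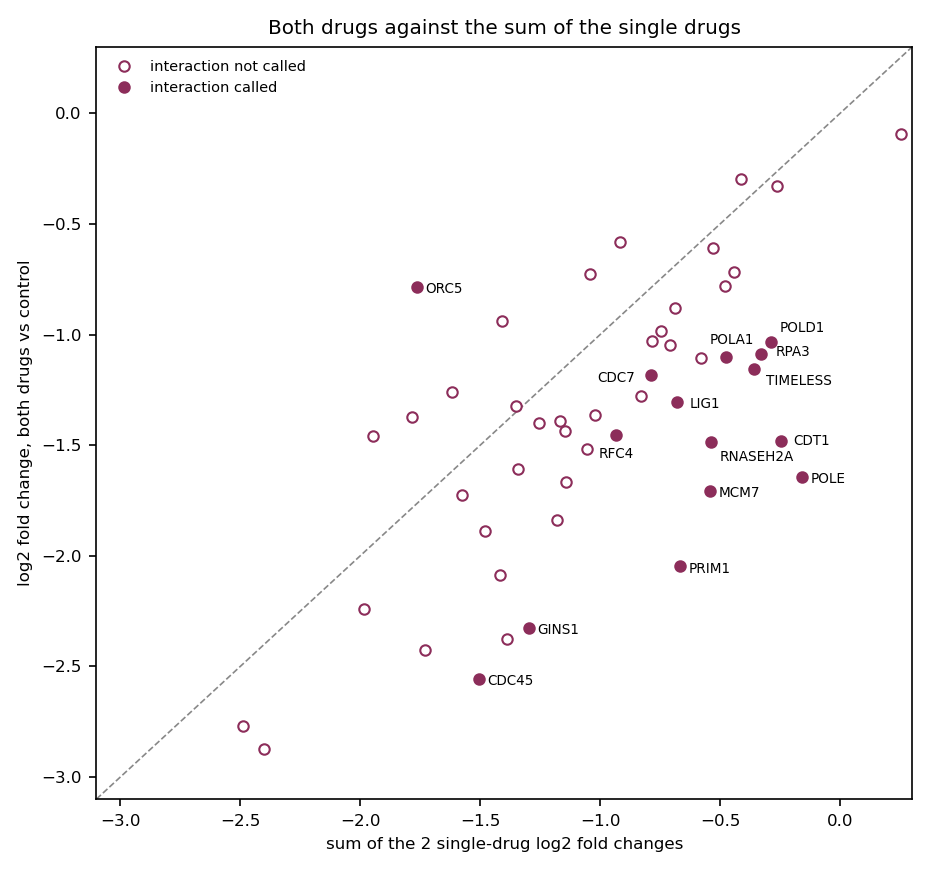
Log2 fold change with both drugs against control (y axis) for the 50 genes against the sum of the 2 single-drug log2 fold changes (x axis). Filled points have an interaction at an adjusted p under 0.05 and the dashed line marks equality. Of the 15 named genes 14 lie below the line, POLE farthest at -1.64 against a sum of -0.16, and ORC5 lies above it.

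Several members are covered by more than 1 probe set, which allows a look at the same genes with other probes. The 25 members concerned had 41 other probe sets, 17 of them with a mean signal of at least 100. All 17 ran in the same direction as the kept one for each drug group against control and for both drugs against Wee1 inhibitor II. For both drugs against 17-AAG 16 of 17 did so, for Wee1 inhibitor II against 17-AAG 13 of 17 and for the interaction 14 of 17. In these comparisons none was called in the opposite direction. The second MCM7 probe set gave -2.05 with both drugs and an interaction of -1.19, and that of ORC5 gave -0.73 and 1.07.

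Among the members, log2 signals across the 11 arrays followed the mean of the 50 most closely for MCM2 (Pearson's r = 0.993), POLE2 (0.991) and PCNA (0.990) and least for POLD2 (0.491), ORC5 (0.497) and ORC3 (0.572). These correlations describe 11 arrays in 4 groups, and the mean includes the gene itself. The genes outside the list most like that mean, among genes with a mean log2 signal of at least 7, were MYBL2 (0.994), SPC25 (0.994), UBE2T (0.993), ZWINT (0.992), CCNE2 (0.992) and EXO1 (0.991). With both drugs they had geometric mean signals of 62.9, 107.0, 435.8, 863.3, 109.9 and 65.9 in that order, against 571.9, 1146, 1814, 4381, 930.0 and 511.1 in control.

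Of 37 further replication genes listed, 35 were measured. With both drugs 22 of the 35 were lower and 3 higher than in control (11.3% and 16.7% of all genes), with Wee1 inhibitor II 11 were lower and 4 higher (10.3% and 14.5%), and with 17-AAG 9 were lower and 0 higher (6.8% and 9.93%). DTL, the ubiquitin ligase receptor that targets CDT1 in S phase, had signals of 316, 289.6 and 304 with both drugs, 712, 776 and 729 with Wee1 inhibitor II, 967, 968 and 948 with 17-AAG and 1209 and 1316 in control. The 4 groups did not overlap, and the log2 fold changes were -2.06 ± 0.08, -0.77 ± 0.08 and -0.39 ± 0.08 (adjusted p = 6.81e-06, 0.00043 and 0.0142). DSCC1, of an alternative clamp loader, fell by 2.39, 1.39 and 0.87 on the log2 scale. UHRF1 and DNMT1, which copy DNA methylation to the new strand, fell by 2.04 and 1.33 with both drugs, and with 17-AAG by 1.27 and 0.55. TOP2A, which untangles copied DNA, was lower with both drugs (-1.51 ± 0.09) and higher with Wee1 inhibitor II alone (0.37 ± 0.09, adjusted p = 0.0162). The 3 genes higher with both drugs were POLD4, the small subunit of polymerase delta (0.59 ± 0.18), TOP2B (0.38 ± 0.11) and the histone chaperone gene ASF1A (0.72 ± 0.16). Its paralogue ASF1B fell instead (-1.77 ± 0.15). For the interaction 3 of the 35 were called below 0 (DTL, TOP2A and DNMT1) and 2 above 0 (TOP1 and SUPT16H), shares near those of all genes (6.97% and 4.82%). Further counts were 17 lower and 2 higher for both drugs against 17-AAG (8.43% and 10.9% of all genes) and 18 and 0 against Wee1 inhibitor II (6.84% and 7.27%). For Wee1 inhibitor II against 17-AAG they were 3 and 6 (8.52% and 10.2%), the 3 being a share near that of all genes.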

How the data were processed

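Per the labels' protocols, 100 ng of total RNA was biotin labelled with a 3-prime in vitro transcription kit for Affymetrix arrays. The authors deposited intensity values, with 1 value for each probe set on each array. Partek 6.5 and RMA stand in the submitters' processing notes, without the use made of each. Each array's 2% trimmed mean was 150.02, on a linear scale that ran up to 17908 over all arrays, and signals were log2 transformed here without further normalisation. No detection calls were used.

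Of 54675 probe sets, 41091 carried a single gene symbol, and the one with the highest mean over 11 arrays stood for each of 19775 genes. limma 3.58.1 (R 4.3.3) fitted group means with empirical Bayes on 7 residual degrees of freedom, with Benjamini-Hochberg adjustment and calls at an adjusted p under 0.05. The number of arrays limits the precision. The procedure was tested on simulated data. Members, subgroups and other lists were chosen with earlier results of these data known. Any member could be named. Signals per array were given for the 2 members of each subgroup with the smallest p of the overall test, those called for the interaction, the 4 lowest fold changes of each drug group against control, and ORC3, POLD2 and POLD3, which were added after their values were seen. Alternatives were control replicate 2 included, the replicate number as a block, centring, quantile normalisation, 2 filters on dim signals, other uses of probe sets, other empirical Bayes settings, array weights, narrower fits and arrays left out.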

Additional observations from a re-analysis of the deposited data

Results flagged for a closer look

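The effect of Wee1 inhibitor II with 17-AAG present differed from its effect without it, by limma's interaction term (log2 scale, adjusted p under 0.05), for 15 of the 50 genes. The interaction was -1.49 for POLE, -1.38 for PRIM1, -1.23 for CDT1, -1.17 for MCM7, -1.05 for CDC45, -1.03 for GINS1, -0.95 for RNASEH2A, -0.793 for TIMELESS, -0.759 for RPA3, -0.747 for POLD1, -0.625 for POLA1, -0.625 for LIG1, -0.519 for RFC4 and -0.399 for CDC7. It was 0.976 for ORC5. On these arrays 23 members had an interaction below 0 at an unadjusted p under 0.05 and 4 had one above 0. No share of all genes was counted at that threshold.

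Control replicate 2, which the main comparisons leave out, held 45 of the 50 genes below both other control arrays, with a median signal of 315.6, against 623.6 and 705.1 on control replicates 1 and 3. The share of all genes below both was not counted. Over all probe sets the median signal of control replicate 2 was 20.8, within the 17.7 to 23.1 of the 11 other arrays. The 4 members above both were ORC4 (819.4, against 567.7 and 552.3), RFC1 (314.5, against 228.1 and 247.6), RFC5 (1676, against 1200 and 1140) and WDHD1 (213.9, against 189.4 and 138.8). Single arrays that stand apart within a group of 2 or 3 were not tested.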

How the results depend on the processing

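With both drugs against control, 46 to 48 members were called lower with any of the 11 arrays left out. These left-out fits gave 20 to 35 members lower for Wee1 inhibitor II and 7 to 24 for 17-AAG against control, 3 to 12 lower and 0 to 1 higher for Wee1 inhibitor II against 17-AAG, 0 to 1 higher in cells given both drugs than with Wee1 inhibitor II, and 6 to 10 called below and 1 to 2 above 0 for the interaction. Control replicate 2 included, which the report left out because the submitters removed it, gave 25 members lower with both drugs, 8 with Wee1 inhibitor II and 1 with 17-AAG against control, 12 for both drugs against 17-AAG, 11 against Wee1 inhibitor II, 1 lower and 0 higher for Wee1 inhibitor II against 17-AAG, and 1 below and 0 above 0 for the interaction. It also turned 9 called values to the other side of 0, none of them called there: RPA1 with both drugs (0.0413), MCM2 (0.11), MCM5 (0.19), POLA1 (0.0118) and PRIM1 (0.0762) with Wee1 inhibitor II, and MCM2 (0.13), MCM5 (0.0712), RFC3 (0.22) and RFC4 (0.31) with 17-AAG. With it the control group holds 3 arrays in place of 2. Calls among all 19775 genes also became fewer. Those lower than in control numbered 726 with both drugs, 425 with Wee1 inhibitor II and 167 with 17-AAG. Without that array they numbered 2233, 2045 and 1345. Those higher than in control numbered 1130, 843 and 313, in place of 3306, 2877 and 1964. The interaction was called below 0 for 91 genes and above 0 for 28, in place of 1378 and 953. Control replicate 2 stood apart from the 11 others in its markers and its correlation, so the control values then spread more widely. Same-numbered arrays of different groups correlated at -0.15 to 0.09 (median -0.01) in their deviations from group means, and differently numbered ones at -0.19 to 0.19 (median -0.005). Deviations within such small groups are tied to each other, so these values cannot show whether the numbers mark pairs. A fit with the replicate block gave 9 members below 0 for the interaction and 0 higher for Wee1 inhibitor II against 17-AAG.

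For the interaction, members called below 0 numbered 6 with each array centred on its median, 8 with probe sets of a gene averaged, 9 with every probe set tested and 22 with trended and robust empirical Bayes. Members called above 0 numbered 3 without the dimmest 40% of genes, 2 with signals below 32 set to 32 and 4 with trended and robust empirical Bayes. For Wee1 inhibitor II against 17-AAG, members lower numbered 6 with probe sets averaged, 7 with every probe set and 5 in a fit of only the arrays compared. Members higher numbered 0 with centring, with every probe set and in the fit of only the arrays compared, 3 without the dimmest genes, 2 with the floor of 32 and 2 with trended and robust empirical Bayes. Those last 3 settings each gave 1 member higher with 17-AAG than in control and 1 higher with both drugs than with Wee1 inhibitor II. A fit of only the arrays compared gave 19 members lower with Wee1 inhibitor II and 0 with 17-AAG against control. The causes were not tested.

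With centring on array medians the median of all genes was -0.08 in place of 0.11 with both drugs and -0.11 in place of 0.12 with Wee1 inhibitor II against control, and the members' medians were -1.56 and -0.80. All genes called lower and higher were then 2805 and 1933 in place of 2233 and 3306 with both drugs, 2875 and 1444 in place of 2045 and 2877 with Wee1 inhibitor II, 2349 and 790 in place of 1668 and 2148 for both drugs against 17-AAG, and 2704 and 748 in place of 1685 and 2011 for Wee1 inhibitor II against 17-AAG. Dim signals limit CLSPN most, and no background measure was used.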
